A study of Mus musculus with 17 samples.

Results

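The genes described here act in glucose release, in making or using pyruvate, or in glucose transport. Together they are carried by 5 of the 284 mouse gene probes of the Steroltalk v2 array, a cDNA microarray of selected metabolic genes. They were chosen by name: G6Pase, Pck1, Pdhb, Pkm2 and Slc2a4, each with 1 probe in 3 spots. Liver RNA of 10 Lean males was set against liver RNA of 10 Fat males, 1 mouse of each line to an array and 17 arrays in all. Both are inbred lines that go back to 1 base population of CBA, JU and CFLP origin and were selected in opposite directions on body fat for over 60 generations, so that a difference between them can lie anywhere in the genome, and each line stands for 1 outcome of the selection. The mice were 14 weeks old, ate maintenance chow and had fasted for 4 hours. Of the 10 pairs of mice, 7 were hybridised on 2 arrays with the dyes exchanged and 3 on 1 array, and all ratios are log2 values of Lean over Fat, so that a negative one means a lower signal in Lean livers.

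Glucose leaves the hepatocyte at the end of gluconeogenesis. Pck1, the cytosolic phosphoenolpyruvate carboxykinase, starts the route from oxaloacetate, and G6Pase, the catalytic subunit of glucose-6-phosphatase that RefSeq calls G6pc, frees glucose from its phosphate at the last step. Both genes are known to be induced in fasting by glucagon and glucocorticoids, with the coactivator Ppargc1a, and to be repressed by insulin. In the other direction pyruvate kinase makes pyruvate, which the pyruvate dehydrogenase complex, of which Pdhb is the E1 beta subunit, turns into acetyl-CoA. Pkm2 names the muscle-type pyruvate kinase gene Pkm, whereas the hepatocyte mainly uses Pklr, and Slc2a4 is GLUT4, the insulin-responsive glucose transporter known from muscle and fat. In RefSeq's gene table for GRCm38.p6 the genes lie at chr11:101367716-101377903 (G6pc), chr2:173153073-173159274 (Pck1), chr14:8165991-8173303 (Pdhb), chr9:59656576-59679372 (Pkm) and chr11:69942286-69948216 (Slc2a4), and the part of each transcript that its probe covers is not given in the sources used here.

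The promoters of the gluconeogenic genes are shown because both genes are known to answer to cAMP and to insulin. They are the 250 bases before the start of each gene in RefSeq's table for GRCm38.p6, on the plus strand, for G6Pase at chr11:101367466-101367715 and for Pck1 at chr2:173152823-173153072. Capitals mark 3 motifs, each searched on both strands. TTACGT is the core of a cAMP response element and TGTTTT that of an insulin response element. TATAAA is the box before the start of many tissue-specific genes.
G6Pase: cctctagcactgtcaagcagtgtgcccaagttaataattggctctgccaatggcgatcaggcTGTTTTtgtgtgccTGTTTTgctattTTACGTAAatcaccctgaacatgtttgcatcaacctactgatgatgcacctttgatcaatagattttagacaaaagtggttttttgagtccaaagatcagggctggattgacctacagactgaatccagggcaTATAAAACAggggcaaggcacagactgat
Pck1: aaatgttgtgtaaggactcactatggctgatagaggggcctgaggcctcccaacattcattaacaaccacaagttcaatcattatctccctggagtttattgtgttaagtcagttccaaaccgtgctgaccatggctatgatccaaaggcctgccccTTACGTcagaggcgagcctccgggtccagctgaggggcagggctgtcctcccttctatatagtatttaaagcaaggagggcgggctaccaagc
TTACGT stood in both windows, starting 162 bases before the start of G6Pase, where it overlaps its own match on the other strand, and 93 bases before that of Pck1. It was found in 2.4% of all 32851 windows of this length. TGTTTT had 3 matches before G6Pase, one of which, on the other strand, overlaps the TATAAA at 29 bases, and none before Pck1, and 19.8% of the windows held it. TATAAA was found before G6Pase only and in 12.4% of the windows. These are exact matches of letters within the windows, and no binding was measured. A variant of a motif or a site farther from the start is not counted, so no match does not mean no such element.

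G6Pase had the lowest mean ratio of the 5 probes, -0.71 (SE 0.21, n = 10 pairs), with a signal in Fat livers 1.64 times that in Lean livers. Over the pairs the ratio had its lowest value at -1.77, its median at -0.87 and its highest at 0.54. It was below 0 in 8 pairs, among them pair 2 at only -0.0063, and above 0 in pairs 1 and 4. In limma's moderated test the adjusted p over all 284 probes was 0.102, so G6Pase did not pass the threshold of 0.05, and the exact two-sided sign-flip permutation test over the 10 pairs gave p = 0.0215. None of the 5 probes passed, against 3.52% of all 284 probes, 2.82% being higher and 0.704% lower in Lean livers. At an unadjusted p of 0.05 the share was 15.1% of all probes, and G6Pase (p = 0.0043) and Pdhb (p = 0.0142) were among them. In bulk liver, fewer cells that make a transcript and less RNA per cell cannot be told apart.

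**Figure D1:**
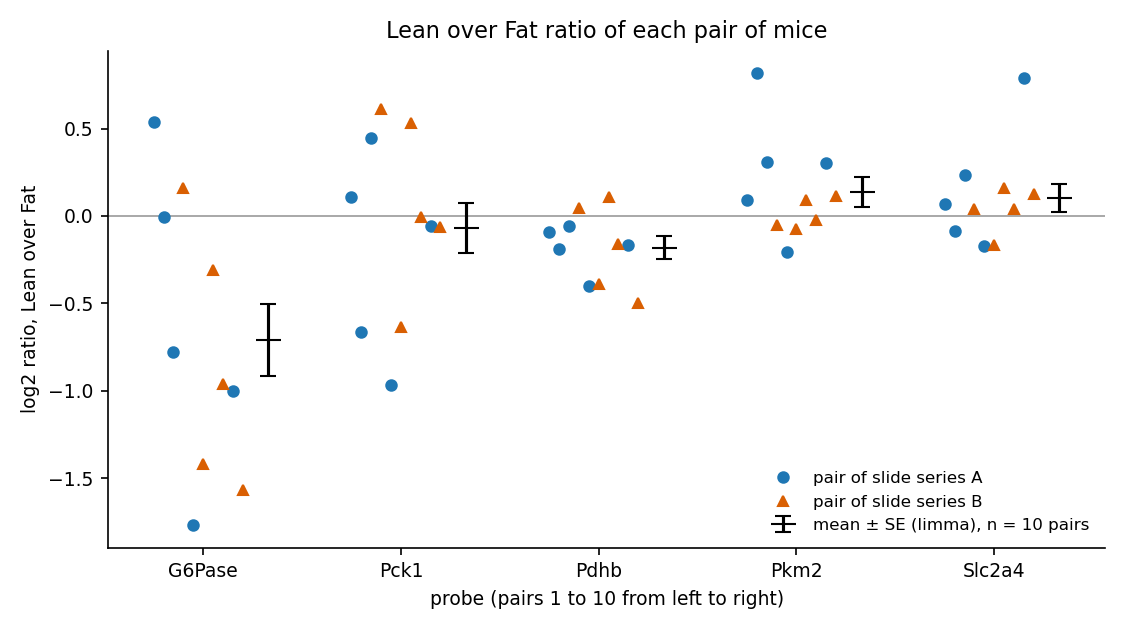
Log2 ratio of Lean over Fat (vertical axis) in each of the 10 pairs of mice for the 5 probes (horizontal axis), with circles for the pairs on slides of number series A, triangles for those of series B, and the mean with its limma SE at the right of each probe. The G6Pase points spread between -1.77 and 0.54, those of Pdhb between -0.50 and 0.11, and 1 point stands apart for Pkm2 (pair 2) and for Slc2a4 (pair 9).

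The value of pair 2 rested on 1 spot. On the array of that pair with Lean in Cy3, the 3 G6Pase spots had ratios of -0.31, -0.23 and 3.76. At the third spot the Fat channel was saturated in the spot and so was the median pixel of its background, whereas the other spots had median Fat backgrounds of 400 and 469. The other array of the pair gave -1.09. In all, 73 of the 855 gene spots of this array were saturated in spot or surround, and on the other arrays 0 to 30 were. With such spots left out, an alternative chosen after the data were seen, the ratio of pair 2 was -0.68, the mean was -0.78, and G6Pase passed with an adjusted p of 0.0329 from limma. With the median in place of the mean of the 3 spots it was -0.66 in pair 2 and -0.77 on average, with an adjusted p of 0.0475. In the authors' value table, which leaves out spots by their own criterion, pair 2 stood at -0.93 and the mean at -0.84. The adjusted p was 0.0287 from limma, over the 230 probes tested there. Leaving out single pairs moved the adjusted p both ways. Pair 1 had the highest ratio, above 0 on both of its arrays (0.97 and 0.10), so that leaving it out had to lower the mean. Without pair 1 the mean was -0.85 and the adjusted p 0.0253 from limma. Without pair 5, which had the lowest ratio, they were -0.59 and 0.238. With array weights, which count noisier pairs for less, the mean was -0.35, with an adjusted p of 0.285.

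Lean and Fat mice overlapped in the G6Pase level. On the scale of normalized log2 intensity Lean livers had a lowest value of 9.09, a median of 9.60 and a highest of 11.08, and Fat livers had a lowest value of 9.80, a median of 10.58 and a highest of 11.48. The mean level was 9.82 ± 0.63 in Lean livers and 10.53 ± 0.57 in Fat livers (SD, n = 10 each). The highest Lean values came from pairs 1 and 2, the second of which holds the saturated spot. The probe was above background on 17 of 17 arrays in both lines, where above background means that most of its spots exceeded their surround by more than 2 SD of its pixels.

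**Figure D2:**
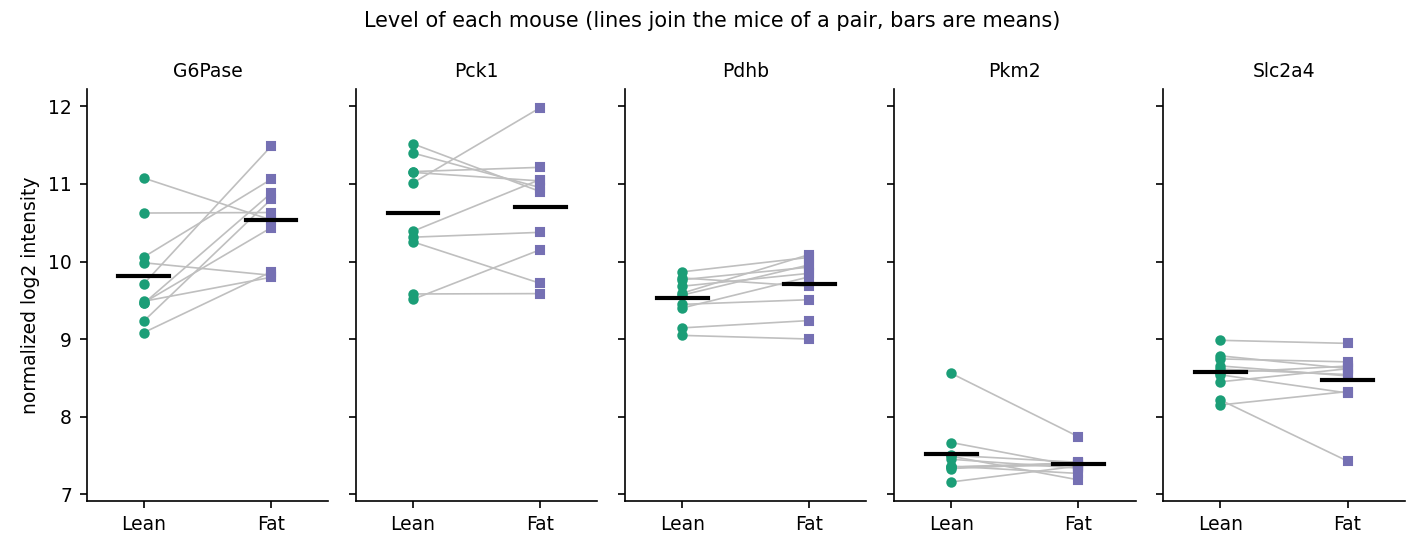
Normalized log2 intensity (vertical axis) of each Lean (left, circles) and Fat (right, squares) mouse for the 5 probes, with grey lines joining the mice of a pair and black bars at the group means. For G6Pase the Lean mean of 9.82 lies under the Fat mean of 10.53 and the mice overlap. Heights are not comparable between probes.

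Pck1, the other gluconeogenic enzyme on the array, had a mean ratio near 0 with a wide interval, and single pairs differed in both directions. Its ratio was lowest in pair 5 at -0.97, had a median of -0.030 and was highest in pair 4 at 0.62. Pairs 2, 5 and 6 lay between -0.97 and -0.64, pairs 3, 4 and 7 between 0.45 and 0.62, and the other 4 pairs between -0.062 and 0.11. Some of these average opposed arrays of the same RNA. With Lean in Cy3 and in Cy5 the ratios were 1.28 and -0.21 in pair 7, 0.82 and -0.82 in pair 8, and 0.85 and -0.63 in pair 1. In pairs 2, 3, 5 and 6 both arrays had the same sign. Pair 4 has 1 array, with Lean in Cy3. The mean was -0.069 (SE 0.15, n = 10 pairs, adjusted p = 0.813 from limma), with a 95% interval over the pairs of -0.46 to 0.32. The mean changed direction to 0.065 after median centring, and it was 0.089 in the 5 pairs of slide series B. Without pair 5 it was 0.031. Mean levels were 10.63 ± 0.72 in Lean livers and 10.70 ± 0.73 in Fat livers (SD, n = 10 each), with single mice from 9.51 to 11.52 in Lean and from 9.59 to 11.98 in Fat livers.

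Pdhb, which commits pyruvate to oxidation, had a small ratio with little spread. Its lowest ratio was -0.50 in pair 10, its median -0.16 and its highest 0.11 in pair 7. The mean of -0.18 (SE 0.064, n = 10 pairs), below 0 in 8 pairs, did not pass (adjusted p = 0.214 from limma), and it turned to 0.015 after median centring. The exact two-sided sign-flip permutation test over the 10 pairs gave p = 0.0176. With LOWESS on all gene spots the mean was -0.16 and passed, at an adjusted p of 0.0216 from limma. Over all probes 5.28% had a ratio below 0 in at least 8 pairs, as G6Pase and Pdhb did. The mean level was 9.53 ± 0.27 in Lean livers and 9.71 ± 0.36 in Fat livers (SD, n = 10 each), and the probe was above background on 17 of 17 arrays in both lines.

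The Pkm2 probe was close to background. It was above background on 4 of 17 arrays in Lean and on 3 of 17 in Fat livers, and the authors' value table is blank for it on every array. Over the arrays its median signal above background was 22.8 intensity units in Lean and 22.0 in Fat livers. The ratios had a lowest value of -0.20, a median of 0.092 and a highest of 0.82, and their mean was 0.14 (SE 0.084, adjusted p = 0.541 from limma). The highest came from pair 2, where the 3 spots of the array with Lean in Cy3 had ratios of -0.083, -0.091 and 4.28. The third spot was saturated like that of G6Pase, and with saturated spots left out pair 2 stood at 0.089 and the mean at 0.065. A cDNA probe does not separate the splice forms of Pkm, and how far it takes up Pklr transcripts was not tested.

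Slc2a4 was above background on 17 of 17 arrays in both lines. Its ratios were lowest at -0.17 in pair 5, had a median of 0.055 and were highest at 0.79 in pair 9, and their mean of 0.10 (SE 0.081, n = 10 pairs) did not pass (adjusted p = 0.601 from limma). The value of pair 9 again came from 1 of 3 spots, with ratios of 0.080, 0.020 and 2.26. The mean background pixel of the third spot was 818 in the Lean and 763 in the Fat channel, while the median pixel was 192 in the Lean and 54 in the Fat channel. When the background was taken as the median of its pixels, an alternative added after the data were seen, pair 9 stood at 0.10 and the mean at 0.037. Since the gene is known from fat tissue, the adipocyte markers of the array were read beside it. Adipoq was above background on 12 arrays in Lean and 11 in Fat livers, Lep on 4 in Lean and 5 in Fat livers, and Retn on 3 in either, and their ratios lay between 0.014 and 0.021, so that 0 of 3 passed. The 6 hepatocyte markers, among them Alb1 and Apob, were above background on all 17 arrays in both lines, with ratios from -0.023 to 0.30 and 0 of 6 passed. Over all 284 probes 3.52% passed. Among the hepatocyte markers Fgb, at 0.30, had an unadjusted p of 0.0248 from limma.

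The spread of the ratios was read between the spots of an array, between the arrays of a pair and between pairs. The 3 spots of a probe on an array usually agreed closely, with a median SD between 0.042 and 0.053 for the 5 probes. On the arrays with the spots named above the SD was 2.33 for G6Pase, 2.52 for Pkm2 and 1.28 for Slc2a4, and on the other arrays it reached 0.34, for Pkm2 in pair 7 with Lean in Cy5. The arrays of a dye-swapped pair, which hold the same RNA, differed more, with a median absolute difference of 0.45 for G6Pase, 0.81 for Pck1, 0.30 for Pdhb, 0.36 for Pkm2 and 0.38 for Slc2a4. Between pairs the SD was 0.78 for G6Pase and 0.54 for Pck1, the 4th and the 14th largest of 284 probes, against 0.20 for Pdhb, 0.29 for Pkm2 and 0.28 for Slc2a4. A difference between 2 arrays is not an SD, and most pair ratios average 2 arrays. The values between arrays and between pairs are therefore not on the same scale.

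None of the 5 differences between the arrays of a pair passed after adjustment over the 5 probes. The G6Pase ratio was lower with Lean in Cy5 than with Lean in Cy3 in 7 of 7 swapped pairs, by -0.66 ± 0.71 on average (SD), and pair 2, with the saturated spot, had the widest difference at -2.16. Without pair 2 the mean difference of G6Pase was -0.41, and with saturated spots left out it was -0.46. For Pck1 the ratio was lower with Lean in Cy5 in 6 of 7 pairs, by -0.84 ± 0.73. The exact two-sided sign-flip permutation test over the 7 pairs gave p = 0.0156 for G6Pase, the smallest that 7 pairs allow, and 0.0313 for Pck1, and both were 0.0781 after adjustment.

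The scaling of the arrays changed these differences. With median centring they turned to 0.71 for G6Pase and 0.68 for Pck1. With LOWESS on all gene spots the G6Pase difference was -0.26 and below 0 in 3 of 7 pairs (exact permutation p = 0.719), and that of Pck1 was -0.42 (exact permutation p = 0.0625). The mean differences of the other probes were -0.20 for Pdhb, 0.33 for Pkm2 and 0.11 for Slc2a4, with exact permutation p from 0.109 to 0.484, and those of Pdhb and Pkm2 turned sign with median centring and with LOWESS on all gene spots. With saturated spots left out the difference of Pkm2 was 0.54, above 0 in 7 of 7 pairs, and those of Pkm2 and G6Pase passed, both with an adjusted exact permutation p of 0.0391. A pair with both arrays averages such a difference out, and pairs 4, 9 and 10, with 1 array each, keep it. In the 7 swapped pairs alone the mean ratio was -0.67 for G6Pase (adjusted p = 0.259 from limma), -0.17 for Pck1 and -0.17 for Pdhb.

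**Figure D3:**
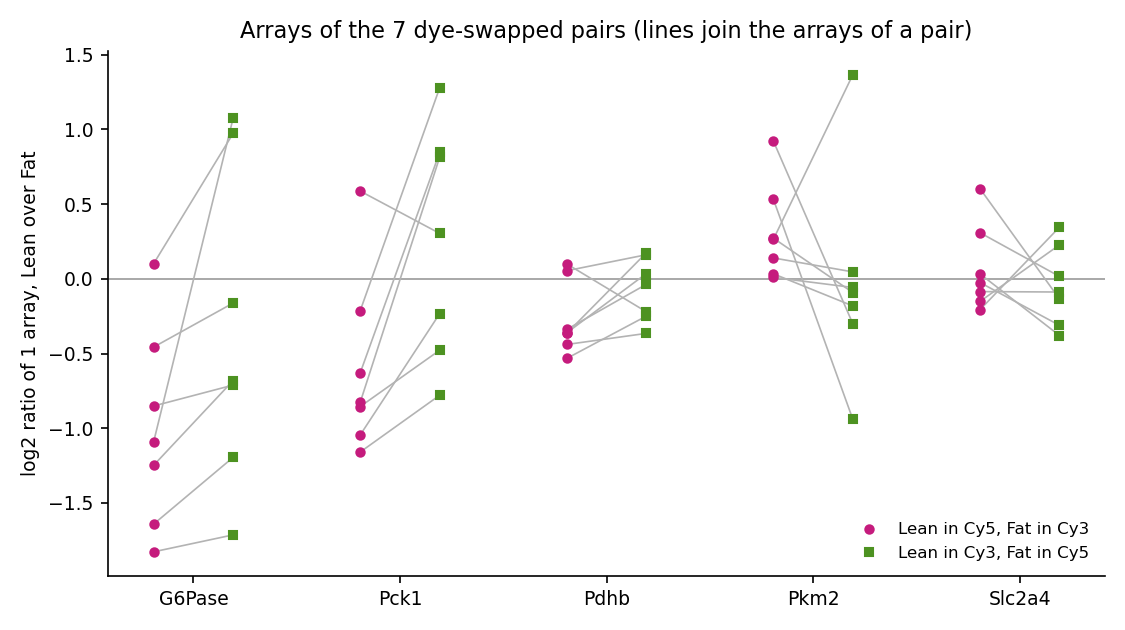
Log2 ratio of Lean over Fat on single arrays (vertical axis) of the 7 dye-swapped pairs for the 5 probes, with circles for Lean in Cy5, squares for Lean in Cy3 and lines joining the arrays of a pair. The lines climb to the right in all 7 pairs of G6Pase and in 6 of 7 of Pck1.

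The slides fall into 2 number series, with pairs 1, 2, 3, 5 and 9 in series A and the other 5 in series B. G6Pase averaged -0.60 ± 0.90 in series A and -0.82 ± 0.73 in series B (SD, n = 5 pairs each), and Pdhb -0.18 ± 0.13 in series A and -0.18 ± 0.26 in series B. Pck1 averaged -0.23 ± 0.58 in series A and 0.089 ± 0.51 in series B. The series did not differ beyond the spread of their pairs for any of the 5 probes, with exact two-sided permutation p from 0.143 for Pkm2 to 0.968 for Pdhb.

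The ratios of Pck1 and Pdhb followed the same order over the pairs by rank correlation, and no other combination of the 5 probes passed. Pairs 5 and 6 had low ratios for G6Pase, Pck1 and Pdhb, and pair 4 had ratios above 0 for all 3. In pair 10 they parted, with -1.57 for G6Pase, -0.062 for Pck1 and -0.50 for Pdhb, and in pair 7 G6Pase stood at -0.31 and Pck1 at 0.53. Probes of other genes, such as Slc2a1 and Hnf4a, were also low in pairs 5 and 6, though not all were. The median of the mean ratios of all 284 probes was 0.041, against 0.063 without pair 5 and 0.054 without pair 6. On the arrays of pair 5 the median ratio of all probes was -0.56 with Lean in Cy3 and 0.22 with Lean in Cy5. Pair 4 has 1 array, with Lean in Cy3, and pair 10 has 1, with Lean in Cy5. In the swapped pairs the ratios with Lean in Cy5 differed by -0.66 for G6Pase, -0.84 for Pck1 and -0.20 for Pdhb on average. In pairs 4 and 10 line and dye cannot be told apart. Correlations over the swapped pairs alone were not computed. For Pck1 and Pdhb Pearson's r was 0.76 (permutation p = 0.0114, adjusted 0.0808) and Spearman's rho 0.90 (permutation p = 0.00078, adjusted 0.0156), the only value of the family to pass. For G6Pase and Pdhb r was 0.76 (permutation p = 0.0121, adjusted 0.0808) and rho 0.75 (permutation p = 0.0172, adjusted 0.0858), and for G6Pase and Pck1 r was 0.51 and rho 0.64, with adjusted permutation p of 0.330 and 0.219. Adjustment was over 20 values, r and rho of 10 probe pairs. Without the 2 pairs farthest from the median of the first gene, r was 0.65 for Pck1 and Pdhb, 0.78 for G6Pase and Pdhb and 0.39 for G6Pase and Pck1.

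**Figure D4:**
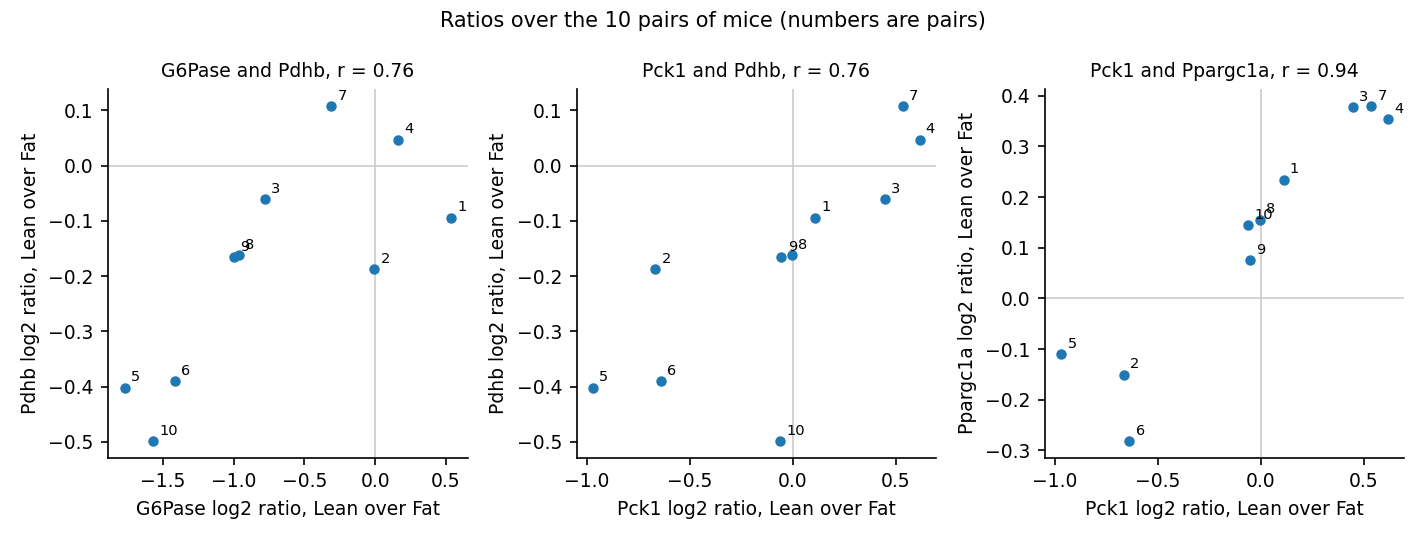
Log2 ratios of Lean over Fat of 1 probe against another over the 10 pairs of mice, which are numbered: Pdhb (vertical) against G6Pase and against Pck1, and Ppargc1a (vertical) against Pck1. Pairs 5 and 6, which were also low for probes of other genes, lie at the lower left of all 3 panels. From left to right r is 0.76, 0.76 and 0.94.

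The scaling of the arrays bears on these relations, since all probes of an array share it. After median centring r was 0.88 for Pck1 and Pdhb, with an adjusted permutation p of 0.00647, and 0.45 for G6Pase and Pdhb, with 0.281. With saturated spots left out it was 0.78 for Pck1 and Pdhb and 0.80 for G6Pase and Pdhb, and both passed. With LOWESS on all gene spots r was 0.57 for Pck1 and Pdhb and 0.58 for G6Pase and Pdhb, and rho for Pck1 and Pdhb was 0.64, none of which passed (adjusted permutation p = 0.458 for each). After subtraction of the mean of its slide series r was 0.80 for Pck1 and Pdhb and 0.77 for G6Pase and Pdhb, and 5 pairs to a series are too few for a value within each. In the fit as reported, the 7 probe pairs that involve Pkm2 or Slc2a4 had r between -0.045 and 0.43 and rho between 0.067 and 0.60. Their adjusted permutation p ran from 0.227 to 0.936. After median centring r of Pkm2 was -0.83 with Pck1, -0.86 with Pdhb and -0.81 with Slc2a4. That of Slc2a4 was 0.72 with Pck1 and 0.89 with Pdhb, and all of these passed. G6Pase with Pkm2, at -0.22, and with Slc2a4, at 0.23, did not pass. How far median centring itself makes such values was not tested.

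The probes most like each gene over the 10 pairs were read by their r, as a description. For Pck1 the nearest was Ppargc1a, the coactivator of gluconeogenic genes, at 0.94, or 0.82 after median centring, and its other probe stood at 0.87. Next came Slc10a1, a bile acid uptake transporter, at 0.94, and Cyp2d22, a cytochrome P450, at 0.91, while the median over all other probes was 0.39. After median centring both stood above Ppargc1a, Slc10a1 at 0.90 and Cyp2d22 at 0.83. With the median of spots Slc10a1, at 0.933, also stood above Ppargc1a, at 0.928. The Ppargc1a probes had mean ratios of 0.12 and 0.046 (SE 0.072 and 0.077) and did not pass, with adjusted p of 0.541 and 0.781 from limma. Their r with G6Pase was 0.46 and 0.32. For Pdhb, whose median r with all other probes was 0.29, the nearest were Nr1h4, the bile acid receptor FXR, at 0.93, Cebpa, a transcription factor of hepatocytes, at 0.86, and Pcaf, a histone acetyltransferase, at 0.86. For G6Pase, with a median of 0.24, they were Cyp2f2 at 0.77, Pdhb at 0.76 and Cyp2j6 at 0.76, which were 0.44, 0.45 and 0.65 after median centring.

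For the other 2 genes the nearest probes changed their likeness with the treatment of single spots. Pkm2 had r of 0.98 with Tcf1, 0.97 with Ptgis and 0.97 with Nr3c1, which were 0.85, 0.88 and 0.86 when the spots of a probe were combined by their median. Slc2a4 had r of 0.99 with Cav1, 0.91 with Srebf1 and 0.88 with Lep, which were 0.75, 0.73 and 0.65 with the median of spots. For Srebf1 and Lep r turned to -0.93 and -0.82 after median centring.

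None of the other genes of glucose metabolism on the array passed the test between Lean and Fat livers, against 3.52% of all 284 probes. The lists here and below are short, so at that share a count of 0 says little about their genes. Of 11 regulators of gluconeogenic genes, measured by 13 probes, 0 passed in either direction. Under an unadjusted p of 0.05 in limma there were 0 of them, against 15.1% of all probes. The median ratio of the regulators was 0.058, against 0.041 over all 284 probes. The largest were 0.16 for Nr3c1, the glucocorticoid receptor (SE 0.083), and -0.14 for Cebpa (SE 0.088). Nr3c1 stood at 0.80 in pair 2, and without that pair its mean was 0.085, while Cebpa ran from -0.21 without pair 7 to -0.094 without pair 6. Of 10 probes for 8 genes of glucose phosphorylation and glycolysis 0 passed, with a median of 0.048 and a range of -0.12 for Gckr, which holds glucokinase in check, to 0.14 for Pkm2. Hk1, a hexokinase, followed Pkm2 in size with 0.13, above background on 5 arrays in Lean and 4 in Fat livers. It also had its highest ratio in pair 2, at 0.77, and without that pair its mean was 0.058. The mean of Gckr was -0.080 without pair 10. Pklr, the hepatocyte's own pyruvate kinase, had a mean ratio of -0.0083 and was above background on 8 arrays in Lean and 11 in Fat livers.

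Of the 3 glucose transporters 0 passed, and the widely expressed Slc2a1 had a ratio of 0.0029 and Slc2a8 one of 0.045. Of 6 genes of insulin signalling and glycogen 0 passed, with a median of 0.048. Ppp1r3c, a subunit that directs protein phosphatase to glycogen, had a mean of 0.20 (SE 0.21, adjusted p = 0.683 from limma) but a pair SD of 0.79, with ratios from -1.16 in pair 6 to 1.22 in pair 1, and its mean was 0.091 without pair 1 and 0.36 without pair 6. Pik3cg, a catalytic subunit of phosphoinositide 3-kinase, had the next largest, 0.066. Of the glucose and insulin responsive transcription factors, Srebf1 had a ratio of 0.11 and MLxip1, which the files call Wbscr14, one of -0.035, and neither passed. The housekeeping genes Actb, Ppia and Gapdh, on 6 probes, had ratios between 0.011 and 0.18, and 0 passed. Ppia, the highest, had an unadjusted p of 0.0447 from limma. In pair 2, with the array of many saturated spots, Ppia stood at 0.87, 1 Actb probe at 0.84 and 1 Gapdh probe at 0.70. The other housekeeping probes were below 0 in that pair. Without pair 2 the means were 0.11 for Ppia, -0.026 for that Actb probe and 0.020 for that Gapdh probe. Of the endothelial markers Vcam1, Icam1, Nos3 and Cav1 and of the macrophage marker Msr1 0 probes passed, with ratios from -0.058 to 0.11.

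**Figure D5:**
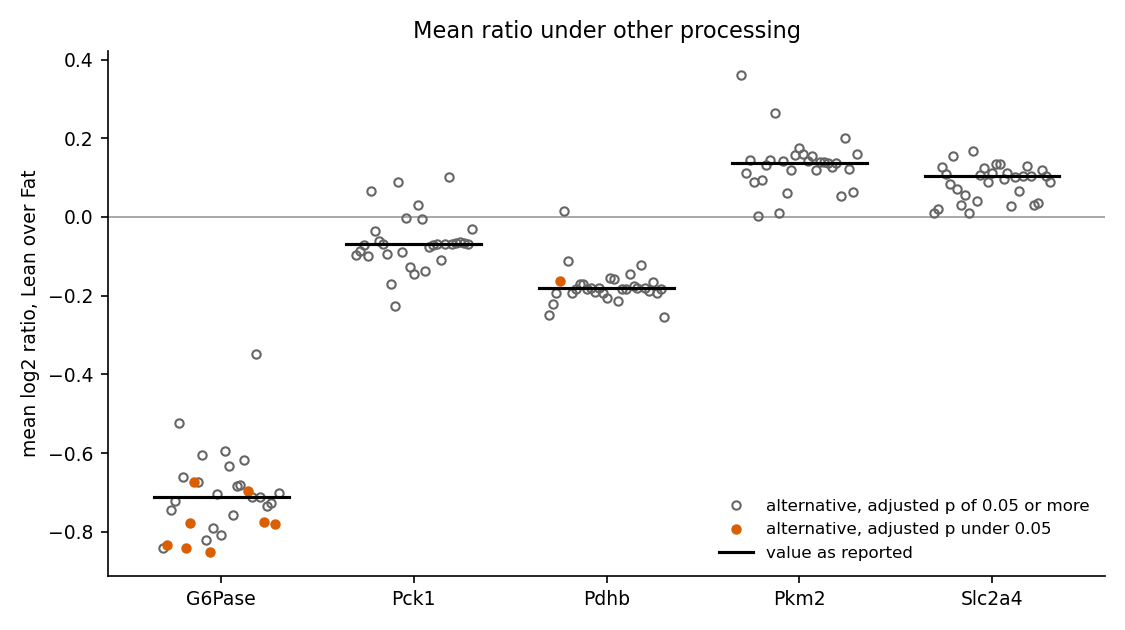
Mean log2 ratio of Lean over Fat (vertical axis) of the 5 probes as reported (black lines) and under up to 31 alternative ways of processing (open circles, and filled where the adjusted p was under 0.05). G6Pase lies below 0 throughout, between -0.85 and -0.35, and passed in 8 of 31.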

How the data were processed

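Two-colour arrays of Lean and Fat mouse livers were analysed in R 4.3.3 with limma 3.58.1. The intensity values of the scanner files, foreground and local background of each of 1440 spots in both channels, were made by the authors with their image software and deposited before normalization. The log2 ratios of the value table were made by the authors after removal of poor spots and LOWESS on spike-in controls, and served as an alternative. The labels name the channel of each line, so no ratio was turned. The direction was Lean over Fat on every array.

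Mean pixels were corrected with normexp (offset 50) and fitted by LOWESS (span 0.3) to luciferase and calibration spike-ins. Spots, then arrays of a pair, were averaged to 10 ratios, tested two-sided against 0, and p-values were adjusted by Benjamini-Hochberg over 284 probes. For levels, average intensities were quantile normalized between arrays. Per array, 34.9% to 78.8% of 855 gene spots were above background in both channels. The number of arrays limits the precision. Correlations used 100000 permutations. Of the probes, 231 were named from the paper's gene list, 45 by synonyms and 1 by description, and 7 kept the file's name. Control and human probes were left out. The steps were tested on simulated data with the same spread over pairs for all probes and no saturated spots. That test does not cover the spots named above or the wide spread of G6Pase.

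The genes, lists and tests were chosen with earlier results of these data known. Named genes were the 5 members, for each list the probes past the threshold or else the 2 with the largest ratio, and for each member the 3 probes with the highest r. Ppargc1a's second probe, Pklr, Gckr and Slc2a1 were named after their values were seen. Alternatives changed the background, scaling, spots, pairs, dye term, weights, source and test.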

Additional observations from a re-analysis of the deposited data

Results flagged for a closer look

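In each of 15 groups of 10 values (the ratio, the Lean level and the Fat level of each of the 5 probes), the highest and lowest value were set against their nearest neighbour, and 5 groups had a value whose gap, as a share of the whole range, was above Dixon's 95% critical value. Chance alone gives about 1 in 20. For Pkm2 these were the ratio of pair 2 at 0.82, with the next at 0.31, the Lean level of pair 2 at 8.56, with the next at 7.67, and the Fat level of pair 2 at 7.74, with the next at 7.41. For Slc2a4 they were the ratio of pair 9 at 0.79, with the next at 0.23, and the Fat level of pair 9 at 7.43, with the next at 8.31. Each rests on 1 of 3 spots: for Pkm2 a spot saturated together with its surround, and for Slc2a4 a spot whose mean background pixel lay far above the median one. With the median of the 3 spots pair 2 stood at 0.11 for Pkm2 and pair 9 at 0.079 for Slc2a4.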

How the results depend on the processing

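Of the alternatives, 27 were listed beforehand and 4 added after the data were seen. The test as reported is itself paired, on 10 ratios each taken within a pair of mice. G6Pase stayed below 0 in all 31, from -0.85 to -0.35, the weakest with array weights, and passed in 8: -0.83 without background subtraction, -0.84 in the authors' value table, -0.78 with dim spots left out, -0.67 with a dye coefficient and the pair as random block, -0.70 with 17 arrays as separate samples, -0.77 with the median of spots, -0.78 with saturated spots left out, and -0.85 without pair 1. With median centring the G6Pase mean was -0.52 and did not pass (adjusted p = 0.277 from limma). Adjusted p from limma ran from 0.0126 to 0.375 over the 31 settings, and with single pairs left out the mean ran from -0.85 to -0.59. Adjustment was over 230 probes in the value table, 206 with dim spots left out, 283 with saturated spots left out and 284 in the others. The setting with 17 arrays as separate samples counts the arrays of a swapped pair as separate mice. Pck1 passed in 0 of 31 and turned to 0.065 with median centring, 0.089 in slide series B and 0.10 with array weights, and ran from -0.14 to 0.031 (without pair 5) as single pairs were left out. Pdhb passed in 1 of 31, LOWESS on all gene spots at -0.16, and turned to 0.015 with median centring. Pkm2 and Slc2a4 passed in 0 settings, and their means stayed above 0 in the 29 and 31 that gave a value, in some only just. Pkm2 ran from 0.0029 with median centring to 0.36 with plain background subtraction. Slc2a4 ran from 0.010 with plain background subtraction to 0.17 in slide series A. For Pkm2 the value table and the filter on dim spots gave none. For all these changes the cause was not tested, beyond the spots named above.

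The count of probes past the threshold, 10 in all, was 6 with plain background subtraction, 5 with median centring, 5 in the dye-swapped pairs, 3 in slide series A, 2 in series B, 6 by the methods' t-test over the pairs and 18 with array weights. It was 7 to 11 with single pairs left out and within 1.5 times in the others. The dye differences turned with median centring to 0.71 for G6Pase, 0.68 for Pck1, 1.06 for Pdhb and -0.78 for Pkm2, and with LOWESS on all gene spots to 0.14 for Pdhb and -0.085 for Pkm2. With saturated spots left out those of G6Pase at -0.46 and Pkm2 at 0.54 passed. As single swapped pairs were left out, also chosen after the data were seen, they ran from -0.75 to -0.41 for G6Pase, -1.03 to -0.71 for Pck1, -0.28 to -0.14 for Pdhb, 0.14 to 0.57 for Pkm2 and 0.011 to 0.23 for Slc2a4, and none passed. The number of probe pairs whose r or rho passed was 1 as reported, 6 with median centring, 0 with LOWESS on all gene spots, 3 in the value table, 3 with saturated spots left out, 2 with median background pixels, 3 with the median of spots, and 2 without the 2 farthest pairs. With median background pixels Pck1 and Pdhb did not pass (r 0.55, rho 0.54, adjusted permutation p = 0.329 for each). The 2 that passed there were G6Pase with Pdhb and Pck1 with Slc2a4. Values of r turned with median centring to -0.22 for G6Pase and Pkm2, -0.86 for Pdhb and Pkm2 and -0.81 for Pkm2 and Slc2a4. With LOWESS on all gene spots they turned to -0.26 for G6Pase and Slc2a4, -0.27 for Pdhb and Pkm2, -0.43 for Pdhb and Slc2a4 and -0.16 for Pkm2 and Slc2a4. For Pck1 and Pkm2 r turned to 0.47 with saturated spots left out, 0.37 with the median of spots and 0.12 less the slide series mean, which also gave -0.0016 for G6Pase and Slc2a4. Signal near background limits Pkm2, and 10 pairs limit every value.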
